A study of Mus musculus with 30 samples.

Results

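Interferon-stimulated genes are the genes that cells switch on after an interferon has bound its receptor. A set of 41 such genes was named by symbol, and every array probe annotated to these symbols was read in kidney, brain and heart of the same mice. Of the 41 genes, 39 had a probe and Dtx3l and Ifi44 did not. The 39 genes had 56 probes, of 16593 gene symbols and 25697 probes on the array.

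The study asked what long treatment with rapamycin, an inhibitor of mTOR complex 1, does to ageing mice. All animals were male wildtype C57BL/6JRj mice, an inbred strain, and random assignment was to rapamycin or to vehicle. Each of 10 mice gave 3 tissues on 30 Illumina BeadChip arrays. The groups were 4 control mice aged 25 weeks, called young controls here, 2 control mice aged 25 months, called old controls, and 4 mice aged 25 months that received rapamycin. Their treatment began at 13 months of age and lasted for more than 12 months. The labels give no litter, cage or array batch, and age cannot be told apart from any other difference between the 25-week and 25-month mice.

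Type I interferons bind the receptor chains Ifnar1 and Ifnar2, whose kinases Jak1 and Tyk2 phosphorylate Stat2. Stat2 and Irf9 are subunits of a complex that binds the interferon-stimulated response element in the promoters of target genes, while interferon gamma acts through the gamma-activated site. The induced proteins sense, cut or modify viral RNA, block viral entry or release, mark proteins with the ubiquitin-like modifier Isg15, and restrain the pathway itself. In brain the microglia, in kidney and heart the resident macrophages and endothelial cells are among the cells known to respond to interferon.

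The kidney array of rapamycin mouse 2 stood apart, with 9989 probes detected above background and a median correlation of 0.8585 with the other kidney arrays. Kidney results are therefore given with all 10 arrays and with the other 9. The other 29 arrays detected between 11923 and 13562 probes. Of the defining markers of each organ on the array, 4 of 5 kidney, 5 of 6 brain and 6 of 6 heart markers were detected on every array of that organ. The titles name the 25-month controls "y control" and the 25-week mice "control", and the groups here follow the stated age and source. Genes known to rise with age (C4b, Lyz2, Gfap, Serpina3n and Il33) were therefore read under the stated ages, and C4b alone is given here. They were chosen with earlier results of these data known and are no independent check of the ages. C4b, a complement component, was higher in old than in young controls by 2.23 ± 0.12 in brain (SE, adjusted p = 1.51e-06). In heart the difference of C4b was 1.95 ± 0.22 (adjusted p = 0.00198), and in the 9 kidneys it was 1.57 ± 0.29 (adjusted p = 0.00931).

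Values below are normalised log2 intensities, and differences are log2 differences with the standard error of limma, a linear model that shares spread across probes. A gene passed the test where its p, adjusted by the Benjamini-Hochberg method over all tested probes of a tissue, was under 0.05. Testing needed detection above background on at least 2 arrays, which 31 of the 39 genes met in kidney, 26 in brain and 30 in heart. Iigp1, Parp9, Xaf1, Ifih1, Ifit1, Mx1, Oas1a and Oas3 met it in no tissue, Trim25 only in kidney, and Irf7, Oasl1, Rtp4 and Sp100 not in brain. Mx2, Oasl1, Rtp4 and Sp100 in kidney and Bst2, Mx2 and Oas2 in brain were on no young array above background. Such genes enter through the groups where they are higher, so the counts below describe the tested genes and not all 39. The arrays measured whole tissue, where more cells of a type and more RNA per cell cannot be told apart.

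Some interferon-stimulated genes rose between young and old controls in each of the 3 tissues. In brain, 11 of 26 tested genes rose, among 0.719% of all tested probes that did, and none fell. They were led by Ifi27l2a, a small hydrophobic protein induced by interferon, at 1.60 ± 0.16 (adjusted p = 3e-04). In kidney with 9 arrays, 13 of 31 rose, against 5.33% of probes, led by Usp18, the protease that removes Isg15, at 1.21 ± 0.22 (adjusted p = 0.00825). In heart 3 of 30 rose, against 0.53% of probes, namely Oasl2, Eif2ak2 and Lgals3bp. With all 10 kidney arrays 0 of 31 passed in limma, where 0.0869% of probes did, and 13 of the 31 had an unadjusted p under 0.05.

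**Figure D1:**
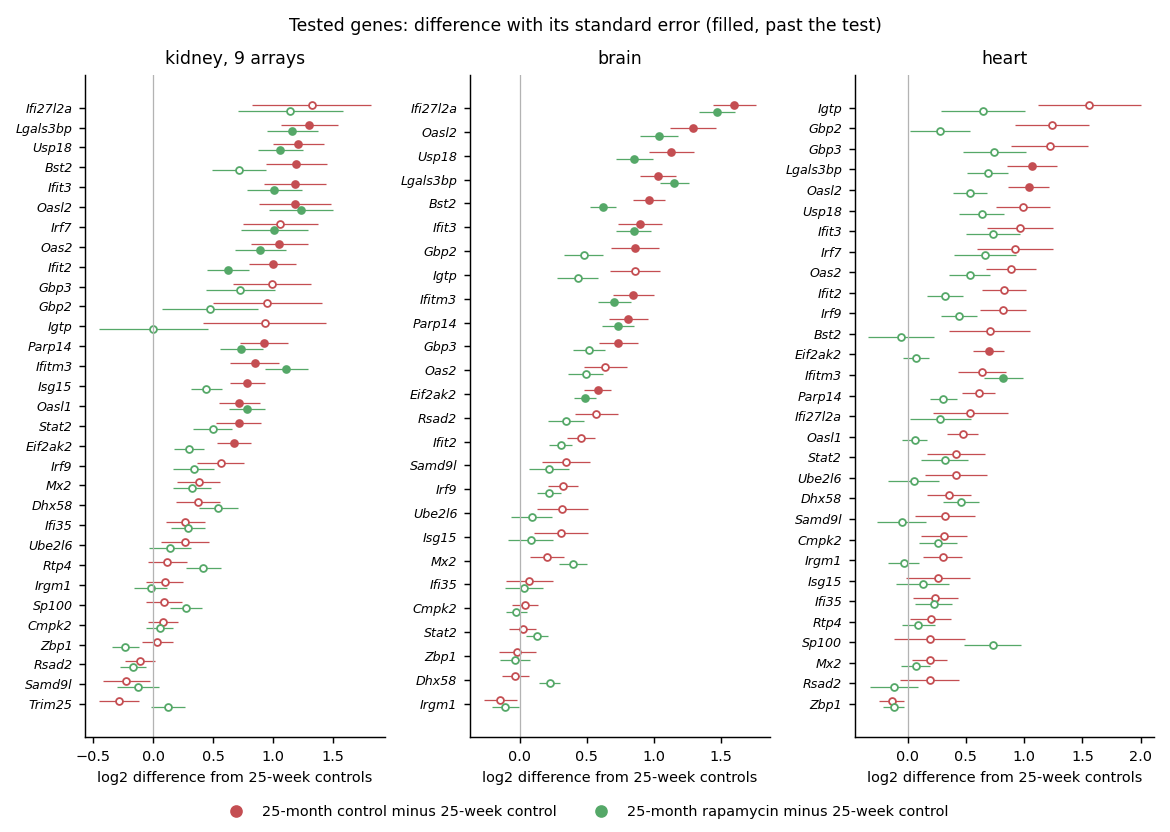
Log2 difference from the young controls of each tested gene in kidney (9 arrays), brain and heart, for old controls (red) and rapamycin mice (green). Lines are standard errors, filled points passed the test, and most points lie to the right of 0 in each tissue.

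Most tested genes lay above 0 whether or not they passed. The difference between old and young controls was positive for 28 of 31 genes in the 9 kidneys, for 23 of 26 in brain and for 29 of 30 in heart. The median over the tested genes was 0.718, 0.577 and 0.574 in that order, where the median over all tested probes was −0.0168, −0.00598 and −0.00907. With all 10 kidney arrays the median was 0.689 and 28 of 31 were positive. Without background correction the medians were 0.339, 0.24 and 0.316, and without old control 1 they were 0.293, 0.48 and 0.402. Without the detection filter, the median over all 39 genes was 0.38 in the 9 kidneys, 0.206 in brain and 0.353 in heart, and 6, 6 and 0 genes passed. Both old controls lay above all 4 young controls for 15 of 31 genes in the 9 kidneys (17.7% of all tested probes), 18 of 26 in brain (11.4%) and 17 of 30 in heart (13%).

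Only 2 old controls stood behind these comparisons, and leaving out old control 1 ended the kidney and heart calls. Without its arrays 0 of the 31 genes passed in the 9 kidneys and 0 passed in heart. Without old control 2, 17 passed in kidney and 11 in heart, which sets old control 1 alone against the young and takes the spread from the other groups. In kidney 7 passed without young control 4. The share of all probes that passed is not given for these fits, so their counts show only how the calls depend on single mice. In heart 0 passed without young control 3 or young control 4, 1 without young control 1, rapamycin mouse 2 or rapamycin mouse 4, 2 without rapamycin mouse 1, and 0 when only the arrays of the compared groups were fitted. In brain 5 genes passed without old control 2, 6 without old control 1, 6 without young control 2 and 7 without young control 3.

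Rapamycin mice also had higher levels than young controls. In brain 9 of 26 tested genes rose (0.905% of probes), and in the 9 kidneys 10 of 31 rose (5.31% of probes). With all 10 kidney arrays 0 of 31 passed in limma (0.297% of probes) and 13 had an unadjusted p under 0.05. In heart only Ifitm3 of 30 tested genes passed (0.762% of probes). All 4 rapamycin mice lay above all 4 young controls for 16 of 26 genes in brain (4.58% of probes) and 10 of 30 in heart (5.28%), and the 3 remaining kidneys did so for 17 of 31 (12.2%). The medians over the tested genes were 0.472 in the 9 kidneys, 0.413 in brain and 0.294 in heart. Without background correction they were 0.2 in the 9 kidneys and 0.152 in brain. No member was lower than in young controls at the threshold in any tissue. These differences share the young controls with those of the old controls, so both sets are only set side by side.

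In the kidney this count rested on several arrays. Of the 10 genes, 3 passed without rapamycin mouse 3, 5 without rapamycin mouse 4 or young control 4, and 6 without young control 2 or young control 3. Ifitm3, Lgals3bp and Usp18 were the 3 that passed without rapamycin mouse 3, and they passed under every other setting tried as well. In heart, Ifitm3 was no longer past the test when rapamycin mouse 1, rapamycin mouse 3, young control 1, young control 3 or young control 4 was left out.

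Rapamycin mice and old controls of the same age were not separated by the test in any tissue. None of the tested genes passed in limma in kidney, brain or heart, where 0%, 0.0276% and 0% of probes did, and the share was also 0% with 9 kidney arrays. At an unadjusted p under 0.05, 7 genes were lower and 0 higher in heart, 2 lower and 1 higher in brain, and 2 lower and 1 higher in the 9 kidneys. The medians over the tested genes were −0.321 in heart, −0.129 in brain and −0.141 in the 9 kidneys, with 26 of 30, 21 of 26 and 22 of 31 genes negative. With all 10 kidney arrays the median was −0.0479, 18 of 31 genes were negative, and 1 gene was higher and 0 lower at an unadjusted p under 0.05. Without old control 1 these medians became −0.0315 in heart and 0.175 in the 9 kidneys, and without old control 2 Gbp2 and Igtp passed as lower in heart. That fit sets the treated hearts against old control 1 alone, assumed to vary like the other groups. The smallest adjusted p values were 0.213 in heart, 0.373 in the 9 kidneys and 0.402 in brain, which does not show that the groups were alike.

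Some genes passed the test in more than 1 tissue. Between old and young controls, Eif2ak2, Lgals3bp and Oasl2 rose in the 9 kidneys, brain and heart, and Bst2, Ifit3, Ifitm3, Parp14 and Usp18 in kidney and brain. The heart call was lost in 12 of 20 alternative fits for Eif2ak2, 13 for Lgals3bp and 6 for Oasl2. Between rapamycin mice and young controls, Ifitm3 rose in all 3 tissues, and Ifit3, Lgals3bp, Oasl2, Parp14 and Usp18 rose in kidney and brain. The tissues came from the same mice, so these are repeats within animals and not independent animals.

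**Figure D2:**
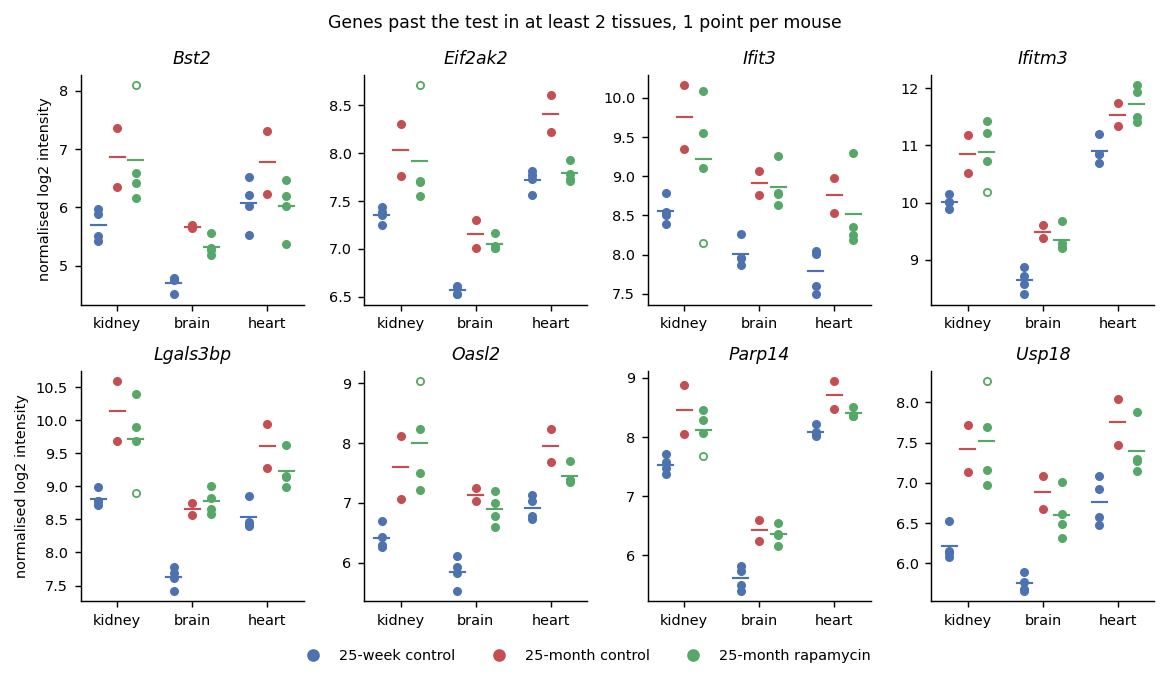
Normalised log2 intensity of the 8 genes past the test in at least 2 tissues, 1 point per mouse, by tissue and group. Bars are group means over all arrays shown, the open point is the kidney array that stood apart, and tissues were normalised separately, so only groups within a tissue can be compared.

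Promoter stretches of 6 of these genes, each past the test in at least 3 of the comparisons with young controls, are shown for the response element. Each runs from 250 bases before to 50 after the annotated start of transcription in RefSeq (GRCm38.p6), on the gene's own strand. Capitals mark matches to the response element core GAAANNGAAA or its reverse TTTCNNTTTC, and to the gamma-activated site TTCNNNGAA, where N is any base and matches may overlap. The stretches lie at chr7:141010695-141010994 (minus strand, Ifitm3), chr19:34583279-34583578 (plus, Ifit3), chr8:71537423-71537722 (minus, Bst2), chr17:78882523-78882822 (minus, Eif2ak2), chr5:114896684-114896983 (plus, Oasl2) and chr11:118401910-118402209 (minus, Lgals3bp).
Ifitm3: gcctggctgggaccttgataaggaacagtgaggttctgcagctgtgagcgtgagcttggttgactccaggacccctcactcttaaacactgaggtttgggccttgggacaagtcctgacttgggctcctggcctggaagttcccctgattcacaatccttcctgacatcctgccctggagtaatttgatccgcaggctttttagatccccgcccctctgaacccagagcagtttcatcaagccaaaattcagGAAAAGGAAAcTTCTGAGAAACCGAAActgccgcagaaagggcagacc
Ifit3: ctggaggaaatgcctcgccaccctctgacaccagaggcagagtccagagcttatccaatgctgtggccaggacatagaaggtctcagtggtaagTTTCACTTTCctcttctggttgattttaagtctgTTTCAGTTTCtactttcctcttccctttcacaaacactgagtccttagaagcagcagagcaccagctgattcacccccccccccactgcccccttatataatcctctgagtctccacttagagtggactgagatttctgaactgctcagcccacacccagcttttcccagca
Bst2: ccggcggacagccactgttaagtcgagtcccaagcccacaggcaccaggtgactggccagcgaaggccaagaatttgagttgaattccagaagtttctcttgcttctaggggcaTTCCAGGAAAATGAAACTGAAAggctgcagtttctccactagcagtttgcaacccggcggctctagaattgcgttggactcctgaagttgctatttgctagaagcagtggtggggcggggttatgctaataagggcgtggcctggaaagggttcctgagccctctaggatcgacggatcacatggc
Eif2ak2: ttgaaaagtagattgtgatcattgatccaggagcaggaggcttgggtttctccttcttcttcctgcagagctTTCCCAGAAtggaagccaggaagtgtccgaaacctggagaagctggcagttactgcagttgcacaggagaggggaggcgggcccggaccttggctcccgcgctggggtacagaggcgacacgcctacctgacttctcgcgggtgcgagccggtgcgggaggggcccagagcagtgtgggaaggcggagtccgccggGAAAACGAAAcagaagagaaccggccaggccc
Oasl2: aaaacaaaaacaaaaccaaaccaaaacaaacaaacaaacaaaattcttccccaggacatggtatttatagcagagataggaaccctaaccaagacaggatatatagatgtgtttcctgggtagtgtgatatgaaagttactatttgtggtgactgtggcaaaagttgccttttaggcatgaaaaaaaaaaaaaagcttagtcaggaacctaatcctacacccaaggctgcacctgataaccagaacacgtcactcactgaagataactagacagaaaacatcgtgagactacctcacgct
Lgals3bp: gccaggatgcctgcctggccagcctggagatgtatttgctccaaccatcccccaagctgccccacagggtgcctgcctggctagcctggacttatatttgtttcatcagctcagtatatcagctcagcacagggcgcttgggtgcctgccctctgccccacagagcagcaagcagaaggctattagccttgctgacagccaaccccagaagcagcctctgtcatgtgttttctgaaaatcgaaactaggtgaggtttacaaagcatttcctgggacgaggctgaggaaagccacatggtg

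Ifitm3, Ifit3 and Bst2 each held 2 matches to the response element core and Eif2ak2 held 1. In Ifitm3 and Bst2 a gamma-activated site match overlapped them, and in Eif2ak2 such a match lay apart, 178 bases before the start. Oasl2 and Lgals3bp held neither motif in this window, which says only that these letters are not in it. Over the 30 genes of the set with an entry, 15 of 34 stretches (44.1%) held the response element core, against 1131 of 32851 stretches of all genes (3.44%). The gamma-activated site was in 7 of the 34 (20.6%) and in 8.3% of all stretches. Mx1, Mx2, Zbp1, Ifi27l2a, Dhx58, Usp18, Oas2, Parp9, Parp14, Iigp1 and Rtp4 had no entry. A match is a string of letters and not a measured binding site.

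The 2′-5′ oligoadenylate synthetase family makes the messenger that activates RNase L, which cuts viral RNA, and includes the Oasl proteins. All 3 tested members, Oas2, Oasl1 and Oasl2, rose in both old controls and rapamycin mice in the 9 kidneys. Of all tested probes 5.33% and 5.31% rose there. Oas1a and Oas3 were not tested. Oasl1 was above background on no young kidney array, so it entered the test only through the old and treated mice. Oasl2 read 6.42, 6.71, 6.26 and 6.30 in the young kidneys, 8.12 and 7.07 in old controls and 7.21, 9.03, 8.23 and 7.49 in rapamycin mice. Every old and treated kidney lay above every young kidney, and the array that stood apart was the highest. The difference between old and young was 1.18 ± 0.30 without that array (adjusted p = 0.0338) and 1.17 ± 0.47 with it (adjusted p = 0.682). A second kidney probe of Oasl2 gave 0.623 between old and young and 0.414 between treated and young with all arrays.

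In brain Oasl2 read 5.54, 5.93, 5.83 and 6.11 in young controls, 7.03 and 7.25 in old controls and 6.60, 6.996, 7.20 and 6.77 under rapamycin. The young brains again lay below all others, by 1.29 ± 0.17 against old controls (adjusted p = 0.00292) and 1.04 ± 0.14 against treated mice (adjusted p = 0.00237). A second Oasl2 probe differed by only 0.248 between old and young brains and did not pass. In heart the values were 7.03, 7.13, 6.78 and 6.73 in young controls, 8.23 and 7.68 in old controls and 7.34, 7.38, 7.71 and 7.39 in treated mice, an old-to-young difference of 1.04 ± 0.18 (adjusted p = 0.0216). Old control 1 was the highest heart, and the treated hearts lay between the groups, apart from rapamycin mouse 3, which was just above old control 2.

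Oasl1 was dim. In kidney it read 4.50, 4.50, 4.50 and 4.44 in young controls, none above background, 5.43 and 4.90 in old controls and 5.09, 5.70, 5.53 and 5.04 in treated mice, all 6 above background. It was thus at least 1.24-fold higher in old than in young kidneys without the array that stood apart (means 5.22 and 4.502, adjusted p = 0.0254) and at least 1.29-fold higher in treated mice (adjusted p = 0.0115). Without old control 1 the old-to-young difference of this probe was 0.432 and did not pass (adjusted p = 0.357). A second kidney probe of Oasl1 differed by 0.0929 between old and young with all arrays. In brain Oasl1 was above background on 0 of 10 arrays. In heart both old controls were above background, at 5.14 and 5.08, and none of the treated hearts was, at 4.60, 4.74, 4.72 and 4.74, so old controls were at least 1.27-fold higher (adjusted p = 0.329), which did not pass.

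Oas2 in brain was also below background in all young controls, and at least 1.32-fold higher in old controls (means 5.313 and 4.676), short of the threshold (adjusted p = 0.101). In the 9 kidneys it rose by 1.05 ± 0.24 in old controls (adjusted p = 0.0208).

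Isg15 is a ubiquitin-like protein that is attached to other proteins by Ube2l6 and ligases such as Trim25, and Usp18 removes it and also blocks the type I receptor. Of this group, Isg15 and Usp18 rose between young and old kidneys and Usp18 between young and old brains. Usp18 read 6.53, 6.13, 6.08 and 6.15 in young kidneys, 7.71 and 7.13 in old and 6.97, 8.26, 7.69 and 7.17 in treated ones. The groups did not overlap with the young, and young control 1 was the highest of its group. The difference between treated and young kidneys was 1.06 ± 0.19 with 9 arrays (adjusted p = 0.00775) and 1.30 ± 0.28 with 10 (adjusted p = 0.101). With 10 arrays the 3 kidney probes of Usp18 gave 0.603 to 1.2 between old and young and 0.28 to 1.3 between treated and young.

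In brain Usp18 read 5.77, 5.67, 5.68 and 5.89 in young controls, 6.68 and 7.09 in old controls and 6.50, 6.61, 7.01 and 6.31 in treated mice. Old brains exceeded young ones by 1.13 ± 0.17 (adjusted p = 0.00665) and treated brains did by 0.85 ± 0.14 (adjusted p = 0.0083). Its 3 brain probes gave 0.576 to 1.13 between old and young, where 1 passed, and 0.269 to 0.854 between treated and young, where 2 passed. In heart Usp18 differed by 0.99 ± 0.23 between old and young without passing (adjusted p = 0.088).

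Isg15 itself read 5.63, 5.62, 5.46 and 5.60 in young kidneys, 6.40 and 6.28 in old and 5.70, 5.53, 6.27 and 6.04 in treated ones. Both old kidneys lay above all young ones, while rapamycin mouse 2 lay among the young. With 9 arrays Isg15 was higher by 0.78 ± 0.15 in old controls (adjusted p = 0.00972), and treated kidneys differed from old ones by -0.34 ± 0.15 (adjusted p = 0.419). Trim25 was among the kidney genes with the smallest p between rapamycin and old controls. The difference was 0.41 ± 0.17 with 9 arrays (adjusted p = 0.394) and 0.52 ± 0.23 with 10 (adjusted p = 0.825). It read 4.80 and 4.92 in old controls and 4.97, 5.79, 5.41 and 5.36 in treated mice, with young controls at 5.31, 4.91, 5.01 and 5.30, which overlapped both. Ube2l6 passed in no tissue, at 0.26 in the 9 kidneys, 0.32 in brain and 0.41 in heart between old and young.

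Some of the Ifit proteins bind foreign RNA that lacks the usual cap structure. Ifit2 and Ifit3 rose in old and treated kidneys with 9 arrays, and Ifit3 rose in old and treated brains. Ifit3 read 7.96, 7.87, 7.96 and 8.26 in young brains, 8.76 and 9.07 in old and 8.63, 8.77, 9.26 and 8.78 in treated ones. Young brains lay below all the others, by 0.90 ± 0.16 against old (adjusted p = 0.0227) and 0.85 ± 0.13 against treated mice (adjusted p = 0.00755). Its 3 brain probes gave 0.819 to 0.968 between old and young, where all 3 passed, and 0.533 to 0.848 between treated and young, where 2 passed.

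In kidney Ifit3 read 8.79, 8.51, 8.54 and 8.39 in young controls, 10.16 and 9.35 in old controls and 9.11, 8.15, 10.09 and 9.55 in treated mice. Apart from rapamycin mouse 2, which was the lowest of all, every old and treated kidney exceeded every young one. With 10 arrays the 3 kidney probes of Ifit3 gave 1.12 to 1.33 between old and young and 0.157 to 0.665 between treated and young. Ifit2 read 6.23, 5.96, 6.04 and 5.66 in young kidneys, 7.26 and 6.65 in old and 6.60, 6.45, 6.78 and 6.37 in treated ones. It had the smallest adjusted p of the set between old and young with all 10 arrays, 0.261 at 0.98 ± 0.23, and passed with 9 (adjusted p = 0.0116). Treated and old kidneys differed by -0.41 ± 0.23 (adjusted p = 0.825) with 10 arrays. In heart Ifit2 and Ifit3 were higher in old controls by 0.83 and 0.96 without passing.

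Among the RNA and DNA sensors, Eif2ak2, the kinase PKR that stops translation on double-stranded RNA, rose in all 3 tissues of old controls. In heart it passed only narrowly. Dhx58, which tunes the RIG-I-like receptors, and Zbp1, a sensor of Z-form nucleic acid, passed nowhere. Eif2ak2 read 7.73, 7.82, 7.56 and 7.77 in young hearts, 8.61 and 8.22 in old and 7.93, 7.73, 7.78 and 7.71 in treated ones. The 2 old hearts were the highest, and the treated hearts overlapped the young. Old and young hearts differed by 0.69 ± 0.14 (adjusted p = 0.045), and treated and old hearts by -0.62 ± 0.14 (adjusted p = 0.213), the smallest p of the set between these groups in heart.

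In brain Eif2ak2 read 6.53, 6.53, 6.61 and 6.60 in young controls, 7.004 and 7.30 in old controls and 7.01, 7.01, 7.16 and 7.03 in treated mice. The young brains lay below the rest, with 0.58 ± 0.1 to old (adjusted p = 0.0147) and 0.48 ± 0.081 to treated mice (adjusted p = 0.0118). In kidney Eif2ak2 read 7.39, 7.44, 7.25 and 7.36 in young controls, 8.30 and 7.76 in old controls and 7.71, 8.71, 7.70 and 7.56 in treated mice. With 9 arrays old kidneys were higher by 0.67 ± 0.14 (adjusted p = 0.0164), and treated kidneys differed from old by -0.37 ± 0.15 (adjusted p = 0.373).

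Dhx58 was the brain gene with a small p in the other direction. It read 5.10 and 5.18 in old brains and 5.33, 5.57, 5.32 and 5.36 in treated ones, which did not overlap, with young controls at 5.09, 5.14, 5.28 and 5.18. Treated brains lay wholly above old ones for 1608 of 14473 probes and for 2 of 26 tested genes. The treated-to-old difference of 0.26 ± 0.099 did not pass (adjusted p = 0.455). Zbp1 differed between old and young by 0.034 in the 9 kidneys, -0.018 in brain and -0.14 in heart.

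Of the transcription factors of the set, 1 of 4 tested rose in old kidneys with 9 arrays, 0 of 2 in old brains and 0 of 4 in old hearts. The shares of all probes were 5.33%, 0.719% and 0.53%, and counts this small cannot compare the tissues. Stat2, a subunit of the response element complex, rose in old kidneys by 0.71 ± 0.19 with 9 arrays (adjusted p = 0.0364). Irf7, which amplifies type I interferon production, rose in treated kidneys by 1.01 ± 0.28 (adjusted p = 0.0487), and its old-to-young value of 1.06 ± 0.32 lay just outside the threshold (adjusted p = 0.0578). Irf9, the DNA-binding subunit of that complex, had its largest value between old and young in heart, 0.82 ± 0.19, without passing (adjusted p = 0.088). Sp100, a nuclear body protein, differed by 0.73 ± 0.25 between treated and young hearts (adjusted p = 0.173).

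The interferon-inducible GTPases attack the vacuoles of intracellular pathogens, and Igtp and Gbp2 respond strongly to interferon gamma. Gbp2 and Gbp3 rose in old brains and no GTPase passed in kidney or heart. Gbp2 read 6.88, 6.67, 6.96 and 6.74 in young brains, 8.08 and 7.28 in old and 7.23, 7.32, 7.49 and 7.12 in treated ones. Old control 1 was the highest brain, and the old-to-young difference was 0.86 ± 0.18 (adjusted p = 0.0425). For Gbp3 that difference was 0.74 ± 0.14 (adjusted p = 0.0275).

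In heart Igtp had the widest difference of the set and the widest gap between the 2 old controls. It read 7.76, 8.01, 7.43 and 7.20 in young hearts, 10.21 and 8.10 in old and 8.04, 8.25, 8.74 and 7.95 in treated ones. Old control 1 was far above every other heart, and old control 2 lay within the range of the treated mice. The difference between old and young was 1.56 ± 0.44 (adjusted p = 0.141). Gbp2 read 9.06, 8.76, 8.56 and 8.45 in young hearts, 10.69 and 9.19 in old and 8.87, 9.13, 9.16 and 8.76 in treated ones, and treated hearts differed from old by -0.96 ± 0.32 (adjusted p = 0.336).

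In kidney old control 1 was likewise the highest for Igtp, with 8.53, 7.61, 7.38 and 7.09 in young controls, 9.75 and 7.44 in old controls and 7.55, 7.46, 7.85 and 7.55 in treated mice. Old control 2 lay within the young range there. In brain Igtp read 7.38 and 6.50 in old controls and 6.29, 6.50, 6.60 and 6.65 in treated mice, which overlapped, and differed by -0.43 ± 0.19 between them (adjusted p = 0.482). Without old control 1 this difference was 0.00946. Irgm1, another GTPase of this class, passed nowhere, but its 2 probes gave −0.145 and 0.649 between old and young brains and 0.301 and 1.26 in heart.

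Both membrane proteins rose in old brains and, with 9 arrays, in old kidneys. Ifitm3, which blocks the fusion of viruses with endosomes, passed between treated and young mice in all 3 tissues. In heart it read 10.86, 11.20, 10.86 and 10.69 in young controls, 11.74 and 11.33 in old controls and 11.94, 11.49, 12.06 and 11.40 in treated mice. All treated and old hearts lay above all young ones, with a treated-to-young difference of 0.82 ± 0.17 (adjusted p = 0.0442) and an old-to-young difference of 0.64 ± 0.21 that did not pass (adjusted p = 0.203).

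In brain Ifitm3 read 8.40, 8.59, 8.73 and 8.88 in young controls, 9.61 and 9.38 in old controls and 9.29, 9.23, 9.69 and 9.21 in treated mice, again without overlap with the young. Old brains were higher by 0.84 ± 0.15 (adjusted p = 0.0221). In kidney Ifitm3 read 10.01, 10.14, 10.01 and 9.88 in young controls, 11.18 and 10.53 in old controls and 10.72, 10.19, 11.42 and 11.22 in treated mice, all of them above the young. With 9 arrays treated kidneys exceeded young ones by 1.11 ± 0.18 (adjusted p = 0.00512), the smallest p of the set in kidney.

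Bst2, or tetherin, holds budding virus particles at the cell surface. In brain it was below background in all 4 young controls, at 4.76, 4.78, 4.77 and 4.51, and above it in both old controls, at 5.70 and 5.64, and all 4 treated mice, at 5.19, 5.30, 5.56 and 5.26. The 3 groups did not overlap. Without overlap, old brains lay above young ones for 11.4% of all tested probes and treated above young for 4.58%. Treated brains lay wholly below old ones for 1324 of 14473 probes and for 2 of 26 tested genes. Old brains were at least 1.69-fold above young ones (means 5.67 and 4.706, adjusted p = 0.0015) and treated brains at least 1.33-fold (mean 5.326, adjusted p = 0.00598).

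Treated brains differed from old by -0.34 ± 0.12 (adjusted p = 0.402), the smallest p of the set between these groups in brain. In kidney Bst2 read 5.89, 5.96, 5.51 and 5.42 in young controls, 7.36 and 6.36 in old controls and 6.17, 8.10, 6.59 and 6.43 in treated mice, with the array that stood apart on top. Old kidneys were higher than young by 1.19 ± 0.26 with 9 arrays (adjusted p = 0.0174).

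The remaining genes are a mixed group. Ifi27l2a read 5.47, 5.24, 4.92 and 5.47 in young brains, 6.79 and 6.97 in old and 6.54, 6.81, 7.004 and 6.65 in treated ones, the widest gap of the set in brain. Old brains were 3.04-fold and treated brains 2.78-fold above young ones (adjusted p = 3e-04 and 7.92e-05). In kidney and heart the young mice themselves spread widely, from 7.04 to 9.04 in kidney and from 8.50 to 10.05 in heart, and Ifi27l2a did not pass there.

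Lgals3bp, a secreted glycoprotein that binds galectin-3, rose in old controls of all 3 tissues, in heart only narrowly past the threshold. It read 7.61, 7.42, 7.69 and 7.78 in young brains, 8.56 and 8.75 in old and 8.83, 8.59, 9.01 and 8.66 in treated ones, with differences from young of 1.03 ± 0.13 (adjusted p = 0.00232) and 1.15 ± 0.11 (adjusted p = 0.000133). All old and treated brains lay above all young ones. In heart the values were 8.44, 8.86, 8.47 and 8.39 in young controls, 9.94 and 9.28 in old controls and 9.16, 8.98, 9.63 and 9.13 in treated mice, and old hearts were higher by 1.07 ± 0.21 (adjusted p = 0.0493).

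Young control 2 was the highest young heart for Lgals3bp but stayed below every old and treated heart. In kidney the gene read 8.78, 8.99, 8.78 and 8.72 in young controls, 10.59 and 9.68 in old controls and 9.68, 8.90, 10.40 and 9.89 in treated mice, where rapamycin mouse 2 alone lay among the young. Old kidneys were higher than young by 1.30 ± 0.24 with 9 arrays (adjusted p = 0.00896) and 1.32 ± 0.38 with 10 (adjusted p = 0.378).

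Parp14, an ADP-ribosyltransferase, read 5.83, 5.50, 5.41 and 5.74 in young brains, 6.25 and 6.60 in old and 6.55, 6.35, 6.35 and 6.16 in treated ones, without overlap with the young. It rose by 0.81 ± 0.14 in old brains (adjusted p = 0.0211) and by 0.92 ± 0.20 in old kidneys with 9 arrays (adjusted p = 0.0181). Rsad2 or viperin, which makes a chain-terminating nucleotide, its neighbour Cmpk2, Ifi35 and Samd9l passed in no comparison. Between old and young, Rsad2 differed by -0.11 in the 9 kidneys, 0.57 in brain and 0.19 in heart, and Samd9l by -0.23, 0.35 and 0.32.

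Individual mice differed in the level of the whole set. For each mouse the median over the tested genes of its deviation from the young mean was taken. In kidney it was 0.944 in old control 1 and 0.338 in old control 2, and in heart 0.843 and 0.402. In brain the old controls were close, at 0.548 and 0.48.

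Old control 1 was the higher of the old controls for 27 of 31 genes in kidney and 28 of 30 in heart, but for 9 of 26 in brain. Among treated mice, rapamycin mouse 3 had the highest median in each tissue. It read 0.72 in the 9 kidneys against 0.354 and 0.406 in mice 1 and 4, 0.595 in brain against 0.33 to 0.437, and 0.597 in heart against 0.238 to 0.276. Over all 39 genes without the detection filter, rapamycin mouse 3 was again highest of the treated mice, at 0.537, 0.275 and 0.4 in kidney with 9 arrays, brain and heart.

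**Figure D3:**
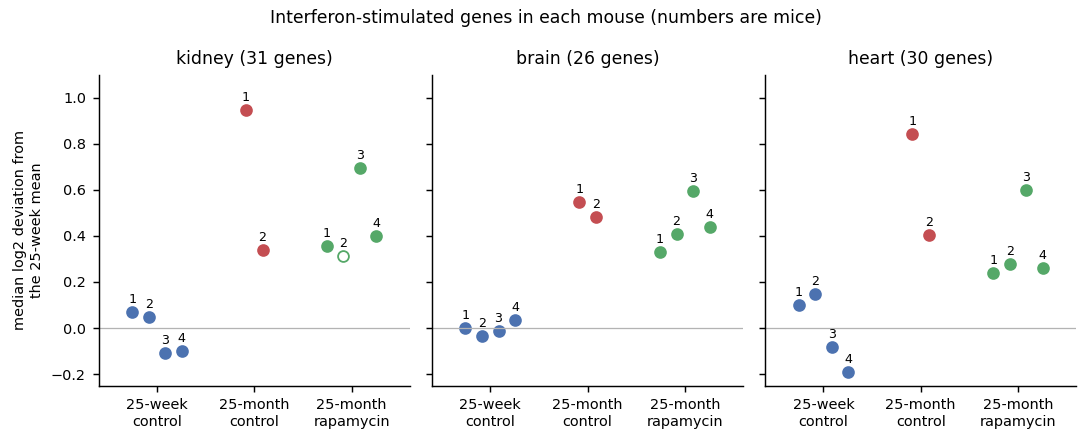
Median over the tested interferon-stimulated genes of each mouse's log2 deviation from the young mean, by tissue and group, with mice numbered. The open point is the kidney array that stood apart, old control 1 is highest in kidney and heart at 0.944 and 0.843, and all old and treated mice lie above all young ones.

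Summed markers of macrophages and of neutrophils were higher in old than in young controls of each tissue. Of 14 macrophage markers on the array, 13 were detected in each tissue and Itgam never was. Between old and young controls 10 of 13 rose in the 9 kidneys, 8 of 13 in brain and 1 of 13 in heart. Of all tested probes 5.33%, 0.719% and 0.53% rose in that order. Their summed intensity was 1698 to 2135 in young kidneys and 3684 to 5359 in old ones, 3031 to 3373 and 4561 to 4801 in brain, and 3445 to 5580 and 5644 to 7967 in heart. Between treated and young mice 12 of 13 rose in the 9 kidneys, 9 of 13 in brain and 4 of 13 in heart. The shares of all tested probes were 5.31%, 0.905% and 0.762%. With all 10 kidney arrays 0 rose in old and 2 in treated mice, where 0.0869% and 0.297% of probes rose. The summed intensity of treated kidneys was 3937 to 5201, and 8498 on the array that stood apart. The treated brains spanned 4593 to 5090 and the treated hearts 5530 to 7875.

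Neutrophil markers were highest in old control 1 in every tissue. Their summed intensity was 1975 against 744.1 in old control 2 in kidney, 3183 against 1108 in brain and 4772 against 964.5 in heart, with young controls at 356.8 to 429.1, 369 to 594.9 and 353.2 to 455.4. The treated kidneys spanned 765.2 to 1219, the treated brains 482.8 to 1118 and the treated hearts 640.5 to 1062. Of 10 neutrophil markers on the array Cxcr2 and Mpo were detected in no tissue. Between old and young 3 of 4 tested rose in the 9 kidneys, 6 of 8 in brain and 3 of 4 in heart. The shares of all probes were 5.33%, 0.719% and 0.53%.

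The young heart of mouse 2 held T cell markers at a sum of 4202, with 8 of 9 markers detected there, where the other 3 young hearts had 342.3 to 367.5. It also had the highest Ifi27l2a of all hearts, 10.05. Without this heart the same 3 genes passed between old and young hearts. In the 9 kidneys 3 of 4 tested T cell markers rose between young and treated mice (5.31% of probes), and none rose between young and old (5.33%). Summed natural killer cell markers of young and old controls were 391.4 to 413.4 and 422 to 476 in kidney. Treated kidneys had 449.4 to 538.2, and 1402 on the array that stood apart. The sums of young and old controls overlapped in brain (499.5 to 618.9 and 518.4 to 616.4) and heart (362.4 to 380.3 and 364.6 to 380.7). Of these 8 markers only 4 were detected on any array in kidney, 2 in brain and 4 in heart. The sums thus include probes at background, and their overlap does not show a lack of change. Listed markers of plasmacytoid dendritic cells, which make type I interferon, did not rise at the threshold in any tissue. With 9 arrays 1 of 4 was lower in old and in treated than in young kidneys (587 and 431 of 13651 probes). Ccr9 and Spib among the 6 markers were not detected in kidney or brain. The sums were 18220 to 21440 in heart, 5376 to 6127 in brain and 295.5 to 548.7 in 10 kidneys. In heart and brain these sums are not shown to come from such cells. Summed endothelial markers of young, old and treated mice were 2585 to 2794, 2665 to 2837 and 2869 to 3343 in kidney. In brain they were 1308 to 1392, 1317 to 1412 and 1374 to 1603. In heart they were 4928 to 5350, 4991 to 5318 and 5755 to 6597. The part of any of these cell types in the results was not tested.

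**Figure D4:**
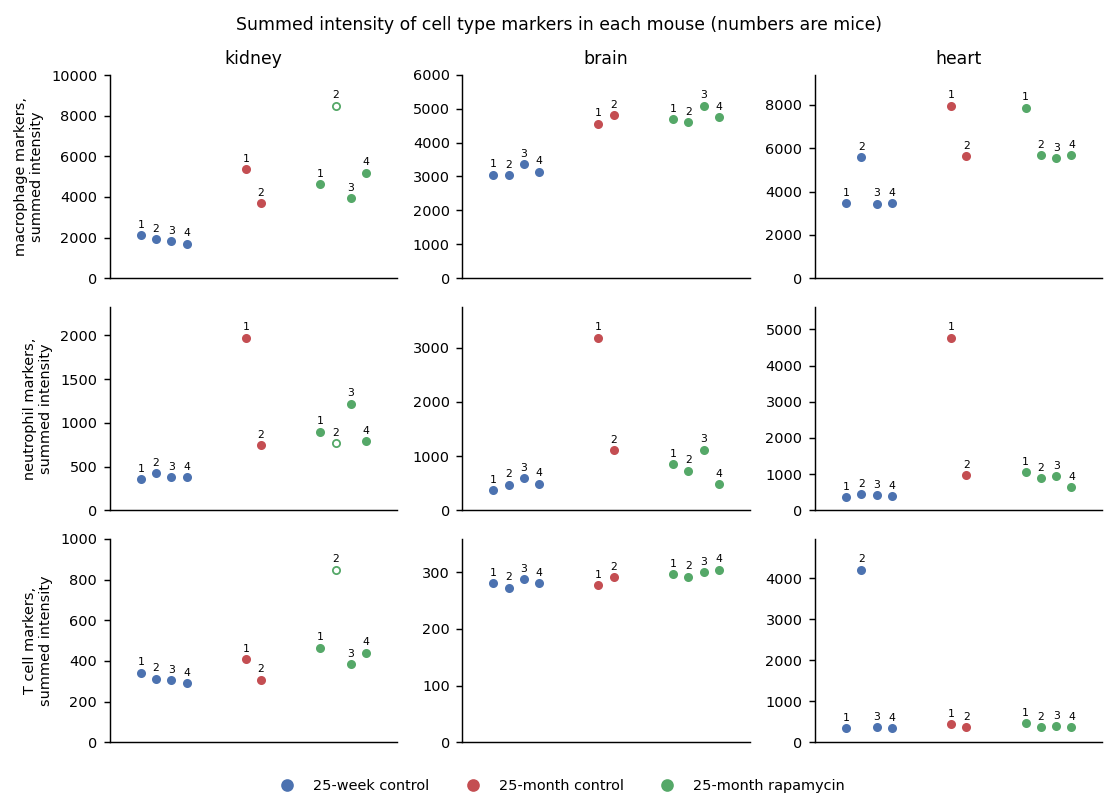
Summed intensity of macrophage, neutrophil and T cell markers in each mouse, with mice numbered and each axis starting at 0. Old control 1 has the highest neutrophil sum in each tissue (4772 in heart), young control 2 stands out for T cell markers in heart (4202), and the open point is the kidney array that stood apart.

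Few upstream genes of the pathway passed the test, from short lists that cannot show a lack of change. Of 19 interferon genes on the array 5 to 6 per tissue were tested, and none rose in any comparison. Ifnz, a zeta interferon, was lower in treated than in young kidneys with 9 arrays by 0.387 on the log2 scale (adjusted p = 0.0482). Of the receptor chains and Janus kinases, 0 of 8 passed between old and young in the 9 kidneys, 0 of 7 in brain and 0 of 8 in heart. Of all tested probes 5.33%, 0.719% and 0.53% rose there. Ifngr2 rose in treated kidneys by 0.44 ± 0.12 (adjusted p = 0.0442), where 5.31% of probes rose.

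Among other transcription factors of the pathway, 2 of 6 rose in old kidneys with 9 arrays, 1 of 6 in brain and 0 of 6 in heart, with medians of 0.331, 0.244 and 0.37. The shares of all probes that rose were 5.33%, 0.719% and 0.53%, also for the restraining genes below. Irf1, the main factor of the interferon gamma response, rose in old kidneys by 1.05 ± 0.28 with 9 arrays (adjusted p = 0.038) and in old brains by 0.64 ± 0.12 (adjusted p = 0.0293). Irf8, a factor of myeloid cells, rose in old kidneys by 0.57 ± 0.15 (adjusted p = 0.0416). Of the genes that restrain the pathway, 2 of 7 rose in old kidneys, 1 of 7 in brain and 0 of 7 in heart, with Socs3, a feedback inhibitor of cytokine receptors, at 1.99 ± 0.32 in kidney (adjusted p = 0.00579) and 0.87 ± 0.13 in brain (adjusted p = 0.00665).

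Among sensors outside the set, Tlr7, a receptor for single-stranded RNA, rose in old kidneys by 0.73 ± 0.12 (adjusted p = 0.00651), 1 of 7 tested, and none did in brain or heart. Of the other induced genes, 6 of 21 tested rose in old kidneys, 0 of 13 in brain and 0 of 19 in heart, where 5.33%, 0.719% and 0.53% of all probes rose. The differences were positive for 19, 12 and 16 of them, with medians of 0.444, 0.336 and 0.37. Whether these lists differed between tissues was not tested. The genes that rose in kidney included Ifitm2, a relative of Ifitm3, at 0.81 ± 0.11 (adjusted p = 0.00277), Nlrc5, the activator of class I antigen presentation genes, at 1.13 ± 0.30 (adjusted p = 0.0364), and the chemokine Cxcl10 at 0.90 ± 0.24 (adjusted p = 0.0403). With all 10 kidney arrays none of these lists had a gene past the test between old and young.

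Whether the differences themselves varied between tissues was tested over all 30 arrays, with the mouse as a random effect. For old minus young, 0 of 31 genes passed between any tissues, where 0.695% of probes did for brain against kidney, 1.01% for heart against kidney and 0.22% for brain against heart. At an unadjusted p under 0.05 the counts were 4, 0 and 2 genes. For rapamycin minus young, Oasl1 alone passed, for brain against kidney at −0.93 ± 0.18 (adjusted p = 0.00676) and heart against kidney at −0.87 ± 0.18 (adjusted p = 0.0101). The shares of probes were 1.4% and 3.61%, and for brain against heart 0 of 31 passed where 0.19% of probes did and 3 genes had an unadjusted p under 0.05.

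Oasl1 was above background in all treated kidneys and in none of the brains or treated hearts, so this difference sets a measured level against the background. Without the kidney array that stood apart it was −0.81 ± 0.16 for brain (adjusted p = 0.00389, 3.08% of probes) and −0.75 ± 0.16 for heart (adjusted p = 0.00626, 6.73% of probes). Oasl1 then also passed for old minus young between brain and kidney, at −0.71 ± 0.19 (adjusted p = 0.0328, 3.99% of probes). The heart-against-kidney call was lost without young control 2 or young control 4, and 2 genes passed without rapamycin mouse 1 or rapamycin mouse 2. The other genes that rose in a single tissue are not shown to differ between tissues.

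The levels of the young mice differed strongly by tissue. Of the 31 genes compared, 24 had their highest mean in heart, 5 in kidney and 2 in brain. Brain was below heart for 23 genes and above it for 2 (63.7% of all probes differed), below kidney for 16 and above it for 0 (64% of probes), and heart was above kidney for 16 and below it for 3 (54.1% of probes). Without the kidney array that stood apart, brain was below heart for 24 genes and above it for 2 (72.5% of probes), and below kidney for 19 and above it for 2 (73.1%). Heart was then above kidney for 18 and below it for 4 (64.9%). The shares of all probes that differed were thus also large.

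Ifi27l2a averaged 7.80 ± 0.88 in young kidney, 5.08 ± 0.21 in brain and 9.32 ± 0.66 in heart (SD, n = 4), and brain differed from heart by −4.24 ± 0.33 (SE, adjusted p = 1.01e-11). Rsad2 averaged 9.16 ± 0.15 in kidney, 5.84 ± 0.13 in brain and 9.36 ± 0.24 in heart, where kidney and heart did not differ beyond the threshold (0.20 ± 0.16, adjusted p = 0.305). Samd9l was an exception to the general order, with 11.48 ± 0.042 in kidney, 6.80 ± 0.080 in brain and 8.95 ± 0.14 in heart. Cmpk2 and Irgm1 were the genes highest in brain, at 7.24 ± 0.055 and 11.22 ± 0.18, above heart by 0.71 ± 0.19 (adjusted p = 0.00231) and 0.51 ± 0.21 (adjusted p = 0.0354). Brain did not differ from kidney at the threshold in Cmpk2, nor in Irgm1 with all arrays, but Irgm1 was higher in brain by 0.34 ± 0.12 without the kidney array that stood apart (adjusted p = 0.013). Levels of different genes rest on different probes and cannot be set against each other.

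**Figure D5:**
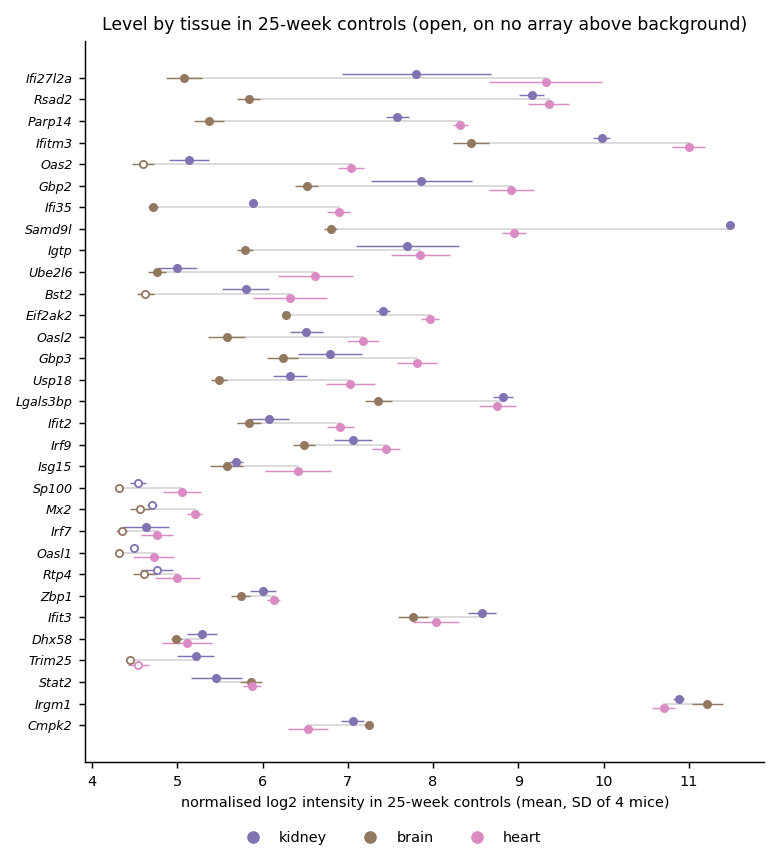
Mean normalised log2 intensity of each gene in the 4 young controls, by tissue, with all arrays normalised together, lines giving the SD of the mice and open points marking genes above background on no young array. Genes are ordered by heart minus brain, and the heart point lies farthest right for 24 of the 31.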

How the data were processed

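RNA of kidney, brain and heart was extracted with Trizol and RNeasy columns, made into biotin-labelled cRNA and hybridised to BeadChips, per the labels' protocols. The deposited table holds a linear intensity and a detection p-value per probe and array, not normalised per the file headers. GenomeStudio 2011.1 is named in the submitters' processing notes. The authors' own matrix, on a log2 scale once floored, was an alternative here and its processing steps are not given in the sources used here.

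Each tissue was processed separately in R 4.3.3 with limma 3.58.1: normexp background correction from detection p-values, an offset of 16, quantile normalisation and log2. Probes needed a detection p under 0.05 on at least 2 arrays. A linear model over the 3 groups with empirical Bayes moderation gave all differences, and Benjamini-Hochberg adjustment ran over all tested probes. Differences between tissues came from a fit of 30 arrays with the mouse as a random effect. Of 25697 probes, 23978 had 1 gene symbol, 0 several and 1719 none. The probe with the highest mean in a tissue stood for its gene. Promoters came from the RefSeq table of GRCm38.p6. The code was tested on simulated data.

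The members and lists were chosen with earlier results of these data known. Every mouse's values are given for up to 8 members per tissue with the smallest p among those past the test, for the 3 with the smallest p where fewer passed, and for members past it in at least 2 tissues. The values of every mouse for Gbp2 in brain and Igtp in kidney and heart were added after they were seen. Of other lists up to 4 genes per tissue and list past the test are named. Arrays have no counting depth, so their number limits the precision. The labels do not say how batches were arranged. Correlations (r) between the deviations of same-numbered mice of different groups ran from −0.235 to 0.313 in kidney with 10 arrays. In kidney without rapamycin mouse 2 they ran from −0.2 to 0.35. The ranges were −0.165 to 0.149 in brain and −0.0804 to 0.0477 in heart. Whether same-numbered mice shared a batch was not tested. Alternatives were another normalisation, background correction and filter, array weights, fewer arrays, a replicate block and leaving out each mouse.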

Additional observations from a re-analysis of the deposited data

Results flagged for a closer look

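In 46 groups of 4 mice examined, 7 held a mouse whose gap to the nearest of the others, divided by the group's range, was above Dixon's critical value. Chance gives about 1 in 20. Young control 1 was high for Usp18 in kidney (6.53 against 6.08 to 6.15, ratio 0.839), and young control 4 low for Bst2 in brain (4.51 against 4.76 to 4.78, ratio 0.915), where no young array was above background. Young control 2 was high for Lgals3bp in heart (8.86 against 8.39 to 8.47, ratio 0.846), the same heart that held T cell markers. Their part in this value was not tested.

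Rapamycin mouse 3 was high for Eif2ak2 in brain (7.16 against 7.01 to 7.03, ratio 0.861), for Oasl2 in heart (7.71 against 7.34 to 7.39, ratio 0.873) and for the median deviation of the tested genes in heart (0.597 against 0.238 to 0.276, ratio 0.894). Rapamycin mouse 1 was low for Oasl1 in heart (4.60 against 4.72 to 4.74, ratio 0.852), below background on all 4 arrays. The interaction test called the difference between rapamycin mice and young controls in Oasl1, at −0.925 for brain against kidney and −0.866 for heart against kidney. Oasl1 was above background on no brain array, no treated heart and no young kidney, so these values compare a signal in treated kidneys with the background and do not show that the response varied.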

How the results depend on the processing

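Of the summary values recomputed, 570 stayed within their spread or within 1.5 times and 81 moved. Of the values of single genes 1581 kept direction and call, 63 gained a call, 132 lost it and 6 changed sign. A gene that passed in neither fit is among those kept, and a count of 0 that remained 0 is among those that stayed. These totals therefore do not give the share of calls that were kept. For old minus young, the median difference without background correction was 0.316 in 10 kidneys, 0.339 in 9 kidneys, 0.24 in brain and 0.316 in heart. For rapamycin minus young it was 0.2 in 9 kidneys and 0.152 in brain, and 0 genes passed in heart. The stricter filter, which tests fewer genes, gave old-minus-young medians of 0.933 in 10 kidneys and 0.659 in brain. No filter, which adds dim genes, gave 0.361 in 10 kidneys, 0.38 in 9, 0.206 in brain and 0.353 in heart, and 0.17 for rapamycin minus young in brain. It left 6 genes past the test in 9 kidneys, 6 in brain and 0 in heart for old minus young, and 4 in 9 kidneys and 0 in heart for rapamycin minus young. Array weights gave 15 and 20 genes in 10 kidneys for old and for rapamycin minus young, 19 in 9 kidneys for the latter and 11 in heart for the former. Fitting only the compared arrays gave 13 in 10 kidneys, a fit without rapamycin arrays, and 0 in heart, both for old minus young. The authors' matrix gave 1 gene in 10 kidneys for rapamycin minus young, and 1 and 0 in heart for old and rapamycin minus young, and joint normalisation, whose values were close to that matrix, gave 1 and 0 in heart as well. Counting each probe gave 20 in 9 kidneys for old minus young. With the replicate block, 5 genes passed in 9 kidneys for rapamycin minus young and 0 in heart for either comparison with young, and the old-minus-young median was 0.662 in brain. Where none is given above, the cause was not tested. The share of all probes that passed is not given for these alternatives or for the fits without a mouse below. A higher count there is thus no result about these genes alone.

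Leaving out each mouse in turn moved the median of old minus young between 0.338 and 0.938 in 10 kidneys, 0.293 and 0.849 in 9, 0.48 and 0.58 in brain and 0.402 and 0.842 in heart. The median of rapamycin minus old moved between −0.382 and 0.167, −0.427 and 0.175, −0.169 and −0.0356, and −0.53 and −0.0315. Genes past the test for old minus young numbered 0 to 13 in 10 kidneys, 0 to 17 in 9, 5 to 11 in brain and 0 to 11 in heart. For rapamycin minus young they numbered 0 to 10, 3 to 12, 7 to 12 and 0 to 2, and for rapamycin minus old in heart 0 to 2. Differences between tissues gave 0 to 1 genes for old minus young in brain against kidney, and for rapamycin minus young 0 to 2 in heart against kidney and 0 to 1 in brain against heart. Signs turned for Bst2 in heart, rapamycin minus young (0.0783 with median scaling, −0.238 to 0.162 without a mouse), for Oasl1 in 9 kidneys, old minus young (−0.176 to 0.731, lowest without old control 1, where a second probe had the higher mean and stood for the gene, and the first gave 0.432), for Igtp in brain, rapamycin minus old (−0.871 to 0.00946, highest without old control 1), and for the heart-against-kidney difference of Oasl1 in old minus young (−0.429 to 0.0666, highest without old control 1).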
